A study of Mus musculus with 16 samples.

Results

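The miR-297, miR-466, miR-467 and miR-669 miRNAs of the rodent Sfmbt2 cluster were examined in mouse dorsal skin, and 4 of them were detected often enough to be compared between genotypes and after chronic UVB. The family was taken by name: every miRNA on the array whose name begins with one of these 4 stems was a member, star strands (the less abundant arm of a hairpin) included. This gave 25 members among 577 miRNAs, with 4 members of the miR-297 stem, 10 of miR-466, 8 of miR-467 and 3 of miR-669.

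The study compared Ppard+/+ (WT) and Ppard-/- (KO) mice on the mixed SKH1-C57/Bl6-SV129 background, with and without chronic UVB, using 1 Agilent miRNA array per skin sample. Ppard encodes PPARβ/δ, a nuclear receptor that is active in the epidermis, and the knockout is a whole-body one. The array measures miRNAs and holds no probe for Ppard mRNA, so the genotype labels could not be checked. All animals were young adult hairless albino females and the 2 genotypes were littermates. The 4 groups were non-irradiated WT, non-irradiated KO, irradiated WT and irradiated KO, each with 4 arrays. The irradiated mice received 70 mJ/cm2 of UVB 3 times a week for 12 weeks, and the non-irradiated mice were sham manipulated and matched for age. The labels number the samples within a group but name no animal, so the p-values measure the spread between these samples. Because whole skin was extracted, fewer cells of a type and less RNA per cell cannot be told apart.

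Sfmbt2 is an imprinted gene that encodes a Polycomb-group protein, and in mouse and rat one of its introns carries a very large array of related miRNA hairpins. These hairpins arose by repeated duplication, are rich in UG and AC repeats and yield mature miRNAs that can differ from each other by a single base. The cluster is known for its expression in placenta and embryonic stem cells. Short UG and AC repeats also occur in many unrelated transcripts.

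On the array annotation (genome build mm9), 24 of the 25 members lay on chromosome 2 between positions 10388586 and 10436549, a stretch of 47.964 kb that held no other miRNA of the array. The exception was miR-297a, which was annotated to chromosome 10, positions 42855314 to 42855332. By gene name, RefSeq listed 81 genes of these 4 stems in its GRCm38.p6 annotation, of which 71 lay inside Sfmbt2 and 10 outside it. The probes of 6 members were annotated to further miRNAs as well, so that the 25 members covered 33 miRNA names. For example, the probes of miR-466e-3p were also listed for 4 further miR-466 arms, and miR-297a and miR-669b were each listed on a probe of the other. Values of these members are therefore sums over near-identical miRNAs.

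RefSeq held a mature sequence for 0 of the 25 members and for 8 relatives that bear the family name and were not on the array. These relatives lie on chromosomes 3, 5, 9, 10, 11 and 13, and so not in the cluster on chromosome 2. A few are shown as examples of repeats in miRNAs that bear the family name, and none of those shown is a member. Each is written 5′ to 3′ from RefSeq (GRCm38.p6), and the capitals mark every run that holds UGUGUG or ACACAC, searched in the mature strand as given.
miR-466k: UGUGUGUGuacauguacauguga
miR-669n: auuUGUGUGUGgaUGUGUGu
miR-467h: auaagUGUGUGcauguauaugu
miR-466i-3p: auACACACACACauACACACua
miR-574-5p: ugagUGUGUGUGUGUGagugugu
miR-362-3p: aACACACcuguucaaggauuca
The last 2 do not bear the family name. Of 1679 mature mouse miRNAs in RefSeq, 39 (2.32%) held one of these motifs, and all 8 of the relatives did. How many of the 25 members hold one was not examined, since their sequences were not available. Among 139 array miRNAs outside the family that could be matched by name, 5 held one, and miR-574-5p and miR-362-3p were the 2 of these detected on all 16 arrays. A match is a description of these letters and not a measure of hybridization.

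Most of the family was not detected in skin. Detection was the scanner software's own call, which was close to a signal over 3 times the error it attached to that signal, but not the same. Of 400 member values 67 were called and 72 exceeded 3 times their error, and 66 did both. By this call 17 of 25 members (68.0%) were detected on none of the 16 arrays, against 50.6% of all 577 miRNAs. Only 2 members, miR-669c and miR-466f-3p, were detected on all 16 (8.0%, against 28.9% of all miRNAs). All 4 members of the miR-297 stem were detected on no array, as were 7 of 10 of the miR-466 stem, 5 of 8 of the miR-467 stem and 1 of 3 of the miR-669 stem.

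The signals of the 17 undetected members were centred near 0. Over their 272 values the total gene signal ran from -9.88 to 12.8 scanner units with a median of -0.17, and 50.7% of the values were below 0. Of their 5440 single spots, 11 were called well above background. The highest ratio of signal to software error among them was 3.21, for miR-297a. These members have no level that could be compared between groups.

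**Figure D1:**
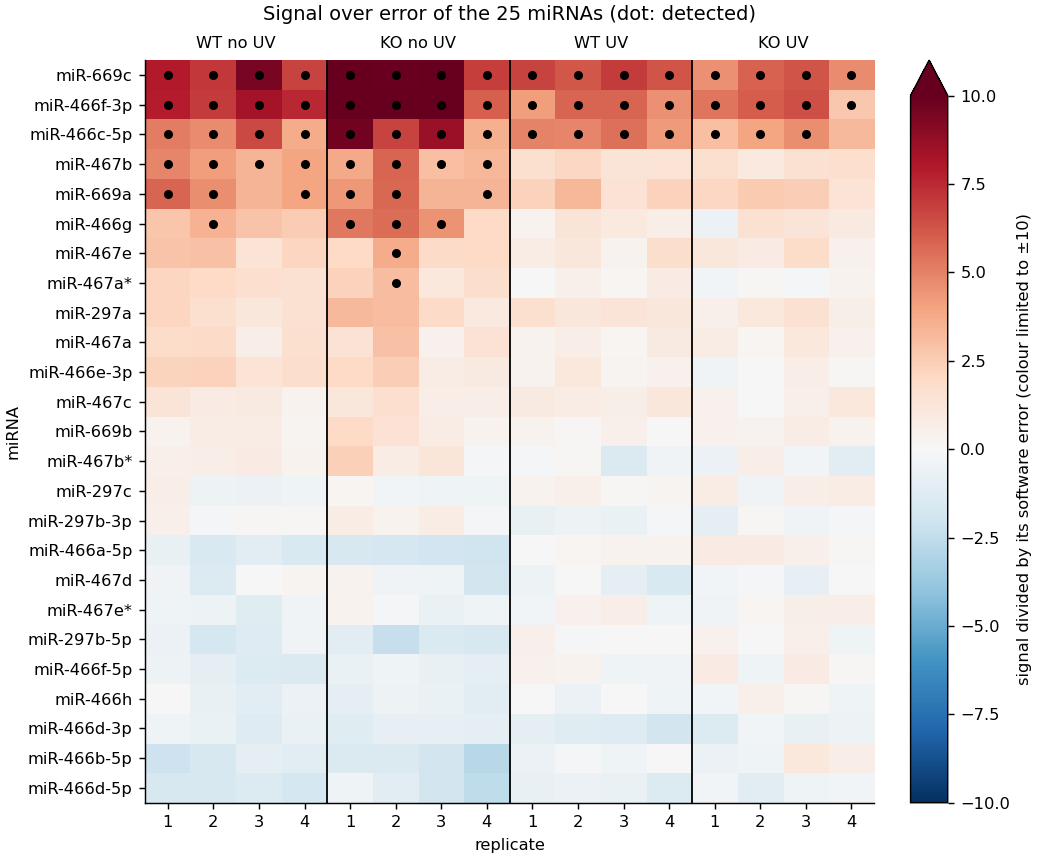
Total gene signal divided by its software error for the 25 miRNAs (rows, ordered by number of arrays with detection) on the 16 arrays (columns, replicates 1 to 4 of each group), with a dot where the software called detection. The top 3 rows are dotted almost throughout, miR-467b is dotted on all 8 non-irradiated arrays and on no irradiated one, and the lower 17 rows carry no dot.

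The skin identity of the samples was checked with miRNAs that mark cell types. All 7 keratinocyte miRNAs, all 3 skeletal muscle miRNAs and all 4 leukocyte miRNAs looked for were detected on all 16 arrays. Of 3 erythrocyte miRNAs 2 were detected on all 16, and miR-144 was detected on 3. Of 4 fibroblast and vessel miRNAs 3 were on the array, and these 3 were detected on all 16. A list of 8 miRNAs stood for placenta or embryonic stem cells, in which the Sfmbt2 cluster is known to be high. It held only miRNAs of the miR-290 to miR-295 and miR-302 groups. Of these 8, 0 were detected on all arrays and 7 on none, and miR-290-5p was detected on 2. The summed signal of these 8 ran from -12.5 to 16.3 scanner units per array, so the miRNAs of this list were at or near background here.

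Fewer members were detected on the irradiated arrays. The counts per array were 5, 6, 4 and 5 in non-irradiated WT skin (5.0 ± 0.82, SD, n = 4) and 6, 8, 5 and 5 in non-irradiated KO skin (6.0 ± 1.41). They were 3 on each of the 4 irradiated WT arrays and 3, 3, 3 and 2 in irradiated KO skin (2.75 ± 0.50). Every non-irradiated array was thus above every irradiated one. The same was seen over the whole array, with means of 227.5, 249.25, 199 and 188.5 miRNAs detected in these 4 groups in the same order.

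The noise also differed between the same arrays. All 8 non-irradiated samples were on slide 1 and all 8 irradiated samples on slide 2, so irradiation and slide cannot be told apart. The negative control spots had an SD of 4.14 to 6.91 scanner units on slide 1 and 9.76 to 11.6 on slide 2, and the mean local background was 62.8 to 79.6 against 118.6 to 130.1. The software error of every member had a higher median on slide 2, by 1.497 to 1.84 times, and for 24 of 25 members the lowest error on slide 2 was above the highest on slide 1. The median signal itself was higher on slide 1 for 12 of 25 members and for 336 of 577 miRNAs.

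With the same error held over all arrays, the difference in counts was not seen. This alternative, chosen after the data were seen, called a member detected where its signal exceeded 3 times the highest error that the member had on any array. It gave means of 2.5, 3.25, 3.25 and 2.5 members in non-irradiated WT, non-irradiated KO, irradiated WT and irradiated KO skin. Over all miRNAs the same threshold gave means of 183.25, 201.75, 196 and 178 in these groups. With 3 times the error of the array itself the means were 5.25, 6.75, 3.25 and 2.75, near those of the software call. The highest error of a member lay on slide 2, so the common threshold was high for the signals of slide 1. By it 20 of 25 members were detected on no array, against 17 by the software call. The fall in the counts without irradiation was thus set by the threshold, and nothing is read from the lost difference.

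**Figure D2:**
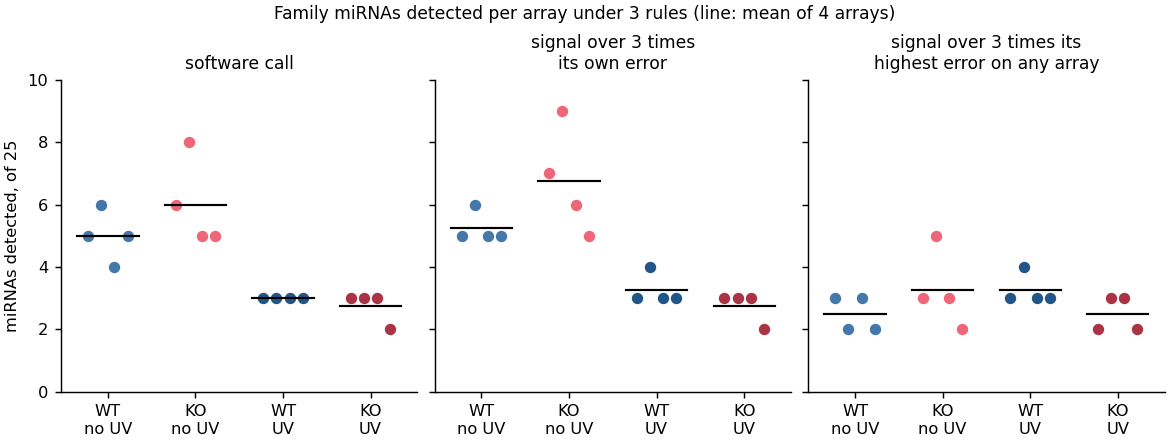
Number of the 25 miRNAs detected on each array (points) by group, with the mean of 4 arrays (line), under the software call (left), a signal over 3 times its own error (middle) and a signal over 3 times its highest error on any array (right). The non-irradiated arrays lie above the irradiated ones in the left and middle panels and overlap them in the right panel.

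Of the 8 members ever detected, 5 were detected on some non-irradiated arrays and on no irradiated one (20% of the family, against 68 miRNAs or 11.8% of the array), and 0 showed the reverse. The clearest was miR-467b, detected on all 8 non-irradiated arrays and on 0 of 8 irradiated ones, a pattern shared by 6 of all 577 miRNAs (1.04%). With the common error threshold 0 of 577 miRNAs had this pattern. For miR-467b that threshold was 25.7 scanner units, above all its non-irradiated WT signals (16.1 to 21.8). The loss of its pattern was thus set by the threshold, and nothing is read from it.

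miR-669c had signals of 40.03, 30.5, 57.9 and 38.5 scanner units in non-irradiated WT skin and 94.998, 59.7, 78.5 and 39.0 in non-irradiated KO skin. Irradiated WT skin gave 64.9, 58.0, 57.2 and 54.1, and irradiated KO skin gave 32.5, 55.6, 50.7 and 42.7. Of the KO values without irradiation 3 were above every non-irradiated WT value, and the other lay among them, so the groups overlapped. The signals of this and the next members are before normalization. Total array signals were 254694 to 395200 in non-irradiated KO skin and 170979 to 265981 in non-irradiated WT skin. After normalization miR-669c ran from 37.4 to 94.1 in the former and from 33.1 to 84.3 in the latter.

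miR-466c-5p gave 23.1, 18.9, 35.3 and 19.4 in non-irradiated WT skin and 52.0, 33.4, 52.0 and 18.2 in non-irradiated KO skin. It gave 44.9, 43.6, 43.2 and 34.5 in irradiated WT skin and 21.2, 35.3, 35.7 and 28.5 in irradiated KO skin, where replicate 4 was not called detected. The same KO arrays as for miR-669c, replicates 1 and 3 without irradiation, were its highest.

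miR-466f-3p gave 27.3, 21.1, 31.6 and 30.1 in non-irradiated WT skin and 51.8, 41.9, 51.3 and 22.5 in non-irradiated KO skin. After irradiation it gave 25.9, 37.9, 31.8 and 26.4 in WT and 27.1, 40.2, 35.6 and 16.6 in KO. It was detected on all 16 arrays, and its irradiated groups overlapped over most of their range.

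miR-467b gave 21.8, 16.3, 16.1 and 20.9 in non-irradiated WT skin and 14.0, 27.7, 13.9 and 16.7 in non-irradiated KO skin. After irradiation it gave 13.7, 17.6, 9.10 and 10.6 in WT and 11.03, 8.42, 11.3 and 14.1 in KO, all without a detection call. The software error on these 8 arrays was 6.80 to 8.58, against 3.69 to 5.25 on the non-irradiated ones. One irradiated WT signal, 17.6, was above the 2 lowest non-irradiated WT signals.

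**Figure D3:**
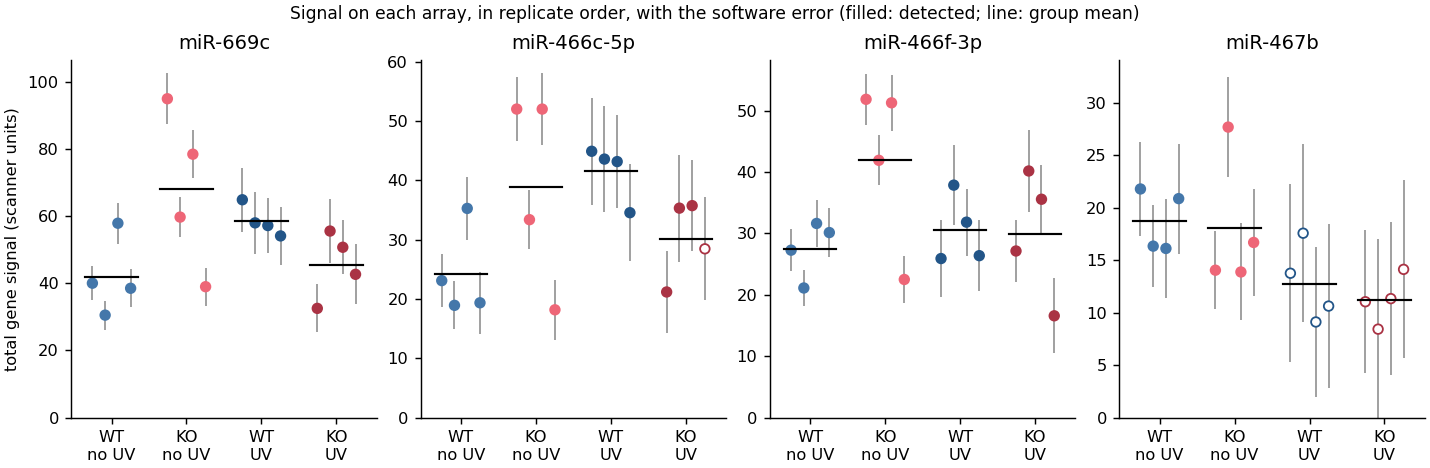
Total gene signal (scanner units, linear axis from 0) of miR-669c, miR-466c-5p, miR-466f-3p and miR-467b on each array, with the software error as a bar, filled points for detected values and the group mean as a line. The non-irradiated KO arrays spread most widely, and the irradiated values of miR-467b are all unfilled, with bars that reach into the range of the non-irradiated values.

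Of the members detected less often, miR-669a was called on replicates 1, 2 and 4 of both non-irradiated groups and on no irradiated array. Its signals were 26.8, 18.4, 15.9 and 20.7 in non-irradiated WT skin and 16.1, 26.9, 15.8 and 17.1 in non-irradiated KO skin, against 19.4, 28.8, 10.3 and 17.9 in irradiated WT skin and 14.0, 23.1, 18.04 and 11.6 in irradiated KO skin. Its highest signal of all, 28.8, was thus on an irradiated array where it was not called detected. The median signal of miR-669a was 17.7 over the 8 non-irradiated and 17.99 over the 8 irradiated arrays, while the median error was 4.65 and 8.16.

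miR-466g was called on 1 non-irradiated WT and 3 non-irradiated KO arrays. Its signals were 8.31 to 9.33 and 6.89 to 17.97 in these 2 groups, and 1.99 to 7.68 and -2.85 to 9.31 in the irradiated WT and KO groups. miR-467e and miR-467a* were each called on 1 array, the second non-irradiated KO replicate, which also had the highest total signal of all 16 arrays. They gave 16.6 and 13.6 there, and 2.54 to 13.9 and -1.87 to 9.15 on the other 15.

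The probes of a single member did not always give the same picture. Each member was measured on 20 spots, shared by 2 to 4 probes that match the miRNA over 13 to 21 bases and differ in length by 1 base at a time. For miR-466f-3p the median probe signal rose with the matched length, from 0.67 at 14 bases through 3.32 and 10.4 to 16.3 at 17 bases, and the share of spots well above background went from 1.25% to 90.0%. The longest probe gave more than the shortest on all 16 arrays for both miR-466f-3p and miR-466c-5p, and on 15 of 16 for miR-467b. miR-669c went the other way, with 29.7 at 17 bases and 24.6 at 18 bases, and its longer probe was the lower one on all 16 arrays. Since the probes differ so much within a member, signals were not compared between members.

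For the comparisons the signals were quantile-normalized over the 16 arrays, values under a floor of 19.4 were set to it, and log2 values were fitted with limma. A miRNA was tested where any group had it detected on each of its 4 arrays, and 4 of the 25 members were among the 228 miRNAs that passed this filter. miR-467b passed through the non-irradiated groups alone, and after normalization it was at the floor on 2 of 4 non-irradiated WT arrays, 3 of 4 non-irradiated KO arrays and all 8 irradiated arrays. Each p-value was adjusted (Benjamini-Hochberg) over all 228 miRNAs, and a call needed an adjusted p under 0.05.

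The first comparison asked whether the family depended on PPARβ/δ in resting skin, and no member was called. In non-irradiated skin 0 of 4 tested members were called by limma, where 0 of 228 miRNAs (0%) were called, and 1 member and 36 miRNAs had an unadjusted p under 0.05. The smallest p belonged to miR-467b, with log2 means of 4.28 ± 0.02 in KO and 4.46 ± 0.22 in WT (SD, n = 4 each). Its difference of -0.17 (SE 0.08, limma, adjusted p = 0.29) had a 95% confidence interval of -0.34 to -0.01, and without normalization the difference was 0.011. The other 3 members differed by 0.10 to 0.23, and the intervals around them were wide: for miR-669c, with 5.59 ± 0.58 in WT and 5.81 ± 0.60 in KO, it ran from -0.44 to 0.90. The median of the 4 differences was 0.11, beside 0 over all miRNAs tested.

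Within the rows of slide 1 this genotype difference changed sign for miR-669c, miR-466c-5p and miR-466f-3p but not for miR-467b. Row 1 held replicates 1 and 2 of both groups and row 2 held replicates 3 and 4. Each value thus compares 2 KO with 2 WT arrays, too few to tell a change of sign from the spread. For miR-669c KO minus WT was 0.73 in row 1 and -0.27 in row 2, for miR-466c-5p it was 0.39 and -0.13, and for miR-466f-3p it was 0.37 and -0.17. For miR-467b it was -0.20 and -0.15. With slide row as a covariate in the fit, 0 of the 4 members were called.

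After irradiation the genotypes were compared to ask whether PPARβ/δ shaped the family in chronically exposed skin. Here too 0 of 4 members were called by limma (5 of 228 miRNAs, 2.19%), and 0 members against 21 miRNAs had an unadjusted p under 0.05. miR-466f-3p had the smallest p: its log2 means were 4.81 ± 0.41 in WT and 5.14 ± 0.61 in KO, a difference of 0.33 (SE 0.29, limma, adjusted p = 0.86, 95% confidence interval -0.30 to 0.96). One irradiated KO value of miR-466f-3p was at the floor. The median of the 4 differences was -0.04, beside 0 over all miRNAs tested. All irradiated WT arrays lay in row 1 of slide 2 and all irradiated KO arrays in row 2, so genotype and row cannot be told apart in this comparison.

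The effect of 12 weeks of UVB was then compared within each genotype. In WT skin 0 of 4 members were called by limma, where 37 of 228 miRNAs (16.2%) were called, and 1 member and 75 miRNAs had an unadjusted p under 0.05. The member was miR-467b, lower by 0.18 after UVB (difference -0.18, SE 0.08, limma, adjusted p = 0.11, 95% confidence interval -0.35 to -0.02). This value is set by the floor, at which the 4 irradiated arrays stood. Without a floor the normalized signals of miR-467b were 19.4 to 26.3 in non-irradiated WT skin and 9.65 to 16.7 after UVB, and did not overlap, as was the case with lower values after UVB for 11.8% of the 228 miRNAs. No fold is given, since 3 times the error of miR-467b was 21.4 to 25.5 scanner units on the irradiated WT arrays, where its signals before normalization in non-irradiated WT skin were 16.1 to 21.8. Whether miR-467b was called turned on where the floor stood. Leaving out any 1 of the 8 irradiated arrays, of either genotype, lowered the recomputed floor to between 17.2 and 17.7 and gave -0.35 to -0.33 (limma, adjusted p 0.018 to 0.036). Since miR-467b entered the test through the non-irradiated groups alone, no difference is read from these values.

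In KO skin 0 of 4 members were called after UVB by limma, where 68 of 228 miRNAs (29.8%) were called, and 0 members against 94 miRNAs had an unadjusted p under 0.05. miR-466c-5p had the smallest p, with log2 means of 4.95 ± 0.58 without and 5.18 ± 0.37 with UVB, a difference of 0.24 (SE 0.31, limma, adjusted p = 0.59, 95% confidence interval -0.42 to 0.90). The median of the 4 differences was 0.01 in WT and 0.01 in KO, beside 0 over all miRNAs tested in each.

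Whether UVB acted differently in the 2 genotypes was tested directly. The difference between the 2 UVB effects (WT minus KO) passed the threshold for 0 of 4 members by limma (5 of 228 miRNAs, 2.19%), and 0 members against 29 miRNAs had an unadjusted p under 0.05. miR-467b had the smallest p, at -0.17 (SE 0.11, limma, adjusted p = 0.58, 95% confidence interval -0.41 to 0.06). The median of the 4 values was 0.04, beside -0.0027 over all miRNAs tested. For miR-669c the value was 0.30, with an interval from -0.64 to 1.24. The intervals of miR-669c, miR-466c-5p and miR-466f-3p in all 5 comparisons hold differences of more than 0.5 on the log2 scale in at least 1 direction.

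**Figure D4:**
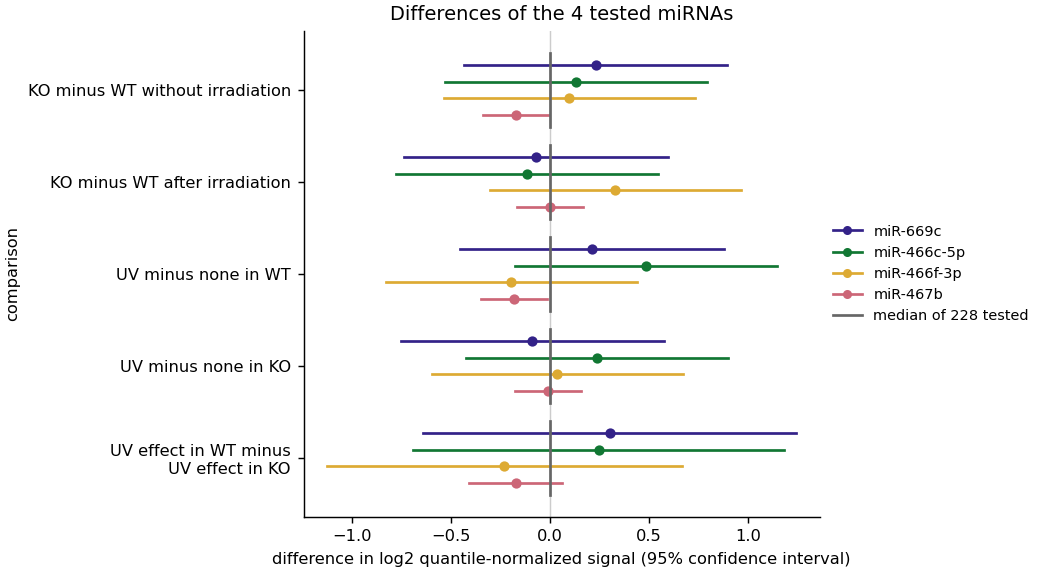
Difference in log2 quantile-normalized signal (points) with its 95% confidence interval (lines) for the 4 tested miRNAs in the 5 comparisons, beside the median of all 228 miRNAs tested (grey bars). The intervals of miR-669c, miR-466c-5p and miR-466f-3p all include 0, and those of miR-467b, which are narrow because most of its values stand at the floor, leave out 0 before adjustment in non-irradiated skin and in the UVB comparison of WT.

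The order of the 4 arrays within a group was then compared between members. On normalized signal miR-669c ran, from high to low, through replicates 3, 1, 4 and 2 of non-irradiated WT skin and through replicates 1, 3, 2 and 4 of non-irradiated KO skin. miR-466c-5p had the same highest array as miR-669c in 3 of 4 groups and the same lowest array in 3 of 4, and so did miR-466f-3p. The full order of miR-669c was shared by each of them in 1 of 4 groups. Of the 227 other miRNAs tested, 12 (5.29%) had the highest array of miR-669c in at least 3 groups and its lowest array in at least 3, these 2 members among them. miR-467b, the other tested member, shared the highest or the lowest array of miR-669c in 0 of 4 groups. The highest array of miR-669c was the lowest of miR-467b in 4 of 4 groups, with a tie in non-irradiated WT skin. For miR-669a, which was not tested, this was so in 3 of 4, and it had the order of miR-467b in 3 of 4. The members thus did not share 1 order. These orders were compared after the values had been seen.

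In 3 of 4 groups, but not in irradiated KO skin, the order of miR-669c was also that of miR-574-5p, the miRNA with the long UG repeat printed above. miR-574-5p, which lies outside the family, was detected on all 16 arrays with signals of 363 to 1514 scanner units and a median of 787. It gave 576, 363, 902 and 559 in non-irradiated WT skin and 1514, 761, 1268 and 474 in non-irradiated KO skin. In irradiated skin it gave 953, 857, 893 and 740 in WT and 520, 828, 813 and 586 in KO. On normalized signal its 4 arrays stood in the same order as those of miR-669c in 3 of 4 groups. Of the 227 other miRNAs tested, 3 (1.32%) shared its order in at least 3 groups, and miR-669c was 1 of them. The share of other miRNAs with its order in at least 1 group was 19.8%, and both miR-466c-5p and miR-466f-3p were among these.

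miR-362-3p, whose motif is ACACAC, was detected on all 16 arrays at 62.7 to 188 scanner units and shared the order of miR-574-5p in 0 of 4 groups. miR-467b likewise shared it in 0 of 4. miR-574-5p was called in 0 of the 5 comparisons, which share arrays with each other. On the log2 scale KO minus WT was 0.13 for miR-574-5p and 0.23 for miR-669c without irradiation, and -0.10 and -0.07 after it. UVB gave 0.24 and 0.21 in WT skin and 0.015 and -0.09 in KO skin, and the interaction was 0.23 and 0.30. The signs thus differed for UVB in KO skin, and each of these values was smaller than its SE. Whether RNA carrying UG repeats reached the probes of miR-669c, miR-466c-5p or miR-466f-3p was not tested. No sequence of these members was available, so the likeness in order was not set against their own repeats.

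**Figure D5:**
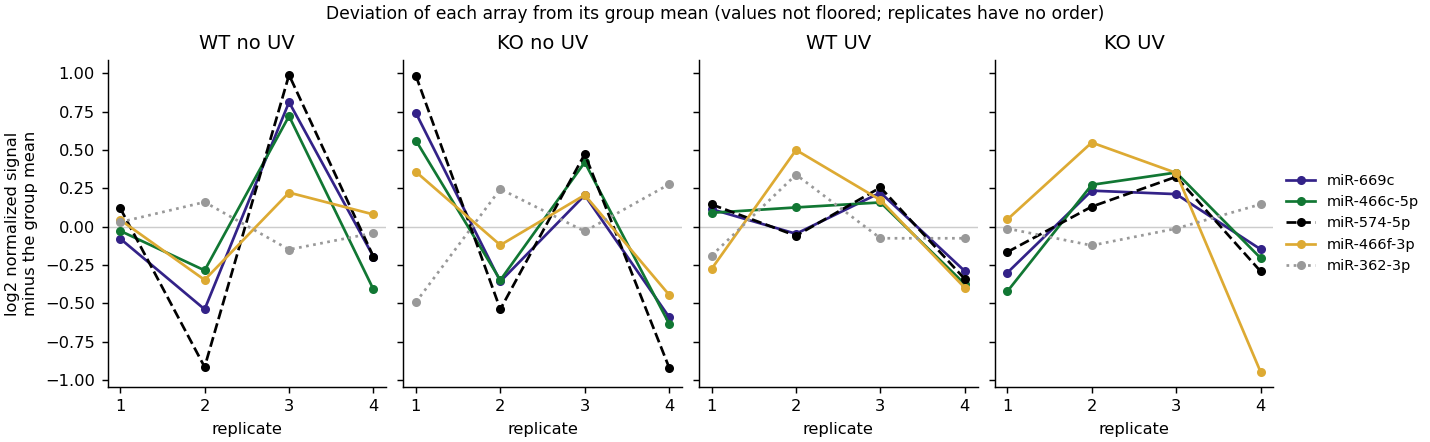
Log2 normalized signal of each array minus its group mean, without a floor, for miR-669c, miR-466c-5p and miR-466f-3p of the family and for miR-574-5p (dashed) and miR-362-3p (dotted) outside it, by group. Lines only join the values of 1 miRNA, since replicates have no order. miR-669c had its highest array in common with miR-574-5p in 3 of 4 groups and its lowest in 3 of 4, and miR-362-3p in 0 of 4 for both.

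The family as a whole made up a small part of the array signal. The signals of the 25 members summed to 161 ± 23.5 scanner units in non-irradiated WT, 220 ± 78.4 in non-irradiated KO, 184 ± 32.9 in irradiated WT and 164 ± 43.5 in irradiated KO skin (SD, n = 4 each). This was 0.076%, 0.070%, 0.070% and 0.077% of the total signal of all miRNAs in these groups, and the single arrays ranged from 0.035% to 0.111%. The ranges of the summed signal overlapped between all 4 groups. The 21 untested members together contributed 11.2 to 98.5 scanner units per array.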

How the data were processed

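Total RNA from whole dorsal skin was labelled with Cy3 and hybridized to 1-colour Agilent mouse miRNA arrays, 16 in all. The authors deposited scanner output of Agilent Feature Extraction (9.5.3.1, per the submitters' processing notes), which holds spot and total gene intensity values in scanner units with a software error and a detection flag for each gene. They also deposited a series table of log2 values, normalized by them, whose arrays matched the scanner files by rank, with array medians of 3.63 to 3.67, and whose centring beyond the methods' invariant and quantile procedure is not given in the sources used here. It served as an alternative only.

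Total gene signals were quantile-normalized, floored at 19.4 (per array, the signal that 5% of its detected miRNAs lie under, then the median of these) and taken to log2. The 228 miRNAs with detection throughout any 1 group were fitted with limma (3.58.1, R 4.3.3) as 4 group means over all 16 arrays, with Benjamini-Hochberg adjustment. The number of arrays limits the precision. The fit was tested on simulated data. All total signals lay between 170979 and 395200 scanner units per array.

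The members, the marker lists and the motif list were chosen with earlier results of these data known. Members tested are given with all values, of the rest the 3 detected most often (here with a tie) by value and the others by count and range, and contrasts for the member with the smallest p. Alternatives covered scaling, background, filter, floor, block, slide row, threshold and each array left out.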

Additional observations from a re-analysis of the deposited data

Results flagged for a closer look

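Among 17 sets of 4 values examined, 3 had 1 array whose gap to the others was most of the range of its group. Chance alone marks about 1 in 20 such sets where values are untied, a rate that does not apply to the 2 of these 3 sets with tied values. The log2 value of miR-466c-5p on the fourth irradiated WT array was 4.92, below the other 3. miR-467b on the second non-irradiated KO array was at 4.31, and the other 3 arrays of that group were at the floor, so that the gap is the distance to the floor. The fourth irradiated KO array had 2 members detected, and the other 3 had 3.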

How the results depend on the processing

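Of 33 alternatives for the count of members called, all 33 left it at 0 for the genotypes after irradiation and for UVB in KO skin. Without normalization the count rose to 1 (miR-669c, limma, adjusted p = 0.0496) for the genotypes without irradiation, where 111 of 228 miRNAs were called. It rose to 2 for the interaction (miR-669c and miR-466c-5p), where 138 of 228 miRNAs were called. The median of all tested miRNAs itself moved by 0.52 and 0.77 in these 2 comparisons. For UVB in WT skin the count was 1, always miR-467b, with the 75th percentile of miRNAs detected on all arrays (-0.15), the invariant set (-0.18), the series table (-0.59) and a floor of 1 unit (-0.88). miR-467b entered the test through the non-irradiated groups alone, so these passes support nothing. Leaving out 1 array gave 0 to 1. It was 1 when any 1 of the 8 irradiated arrays was left out (miR-467b at -0.35 to -0.33), where the floor, recomputed, was 17.2 to 17.7, and 0 when any 1 of the 8 non-irradiated arrays was, where it was 20.7 to 21.7. With an irradiated array left out, 30 to 43 of 228 miRNAs were called. The adjusted p of miR-467b ran from 0.0085 to 0.49 over its alternatives. With no filter 25 members entered and 0 were called in each comparison, most values standing at the floor. Without normalization 7 of the 19 member differences other than 0 turned sign: miR-467b to 0.011 between the genotypes without irradiation and to 0.024 in the interaction, miR-466f-3p to -0.082 between the genotypes after irradiation, to 0.15 and -0.48 for UVB in WT and KO skin and to 0.63 in the interaction, and miR-466c-5p to -0.28 for UVB in KO skin.

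Members detected per array, left out 1 array at a time, averaged 4.67 to 5.33, 5.33 to 6.33, 3.0 and 2.67 to 3.0. With 3 times the own error the irradiated WT mean was 3.25, and with the common threshold (chosen after seeing the data) the means for non-irradiated WT, non-irradiated KO and irradiated WT were 2.5, 3.25 and 3.25. The labels share replicate numbers between groups but do not say that these are pairs, and the main fit did not take them as pairs. Of 24 same-numbered pairs 15 deviated together with a correlation over 0.1 (range -0.35 to 0.38). No values for pairs with different numbers are given beside these, so they cannot decide whether the numbers mark pairs. With the replicate number as a block, 0 members were called in each comparison, and 1 in place of 5 miRNAs in the interaction. Signals near the software error limit what can be compared: 21 of 25 members could not be tested.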
